A study of Mus musculus with 6 samples.

Results

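The barcodes described here carried the transcripts of antibody-secreting cells after repetitive bleomycin, the drug used to induce lung fibrosis in mice. They were chosen by their unique molecular identifiers (UMIs, each standing for 1 captured transcript). A barcode was taken when it had at least 700 UMIs, at least 2 of Mzb1, at least 2 of Jchain and none of Ms4a1, the B cell antigen CD20. This gave 83 of the 9965 barcodes at that depth in the repetitive bleomycin library (0.833%, 95% interval 0.664 to 1.03) and 2 of 6076 in the repetitive PBS library (0.0329%, 0.00399 to 0.119). The 6 libraries of the series held 33286 barcodes. Because 78 of the 83 also carried at least 4 of 8 fibroblast (FB) markers, they are called Mzb1+Jchain+ barcodes, or members, and not plasma cells.

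Both repetitive libraries were made from GFP+ lung cells of male Pdgfra GFP mice (strain PDGFRa-EGFP, B6.129S4-Pdgfra tm11(EGFP)Sor/J) of 10 to 14 weeks. The reporter is driven by the Pdgfra locus, so the sort was made for FBs and any plasma cell in it came through that gate. Mice received 3 weekly doses by oropharyngeal aspiration in 50 µl, either PBS or bleomycin (1 U/kg for the first and second dose and 0.5 U/kg for the last), and lungs of 3 mice per group were pooled 2 weeks after the last dose. The other 4 libraries were GFP+ cells on day 14 after 1 dose of PBS or bleomycin, and organoids of alveolar type 2 cells grown with FBs. The organoid FBs were GFP+ cells taken 2 weeks after 1 dose of PBS (normal) or bleomycin (fibrogenic). The treatment protocol gives 2 U/kg for this bleomycin dose, and the labels give 2 different bleomycin doses for the single-dose animals. Each condition was 1 library, so no difference between conditions could be tested. Every interval with 2 bounds is an exact 95% interval (Clopper-Pearson for shares, Poisson for levels) that covers counting error only. The intervals treat barcodes as independent, which barcodes that share antibody chains may not be.

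A plasma cell is the end stage of a B cell that has turned its endoplasmic reticulum (ER) over to the secretion of 1 antibody. The antibody pairs a heavy chain, whose constant gene sets the class (IgM, IgG, IgA), with a kappa or lambda light chain. Each chain begins with a variable (V) segment that the cell and its clonal relatives share. Jchain encodes the joining chain that links IgM and IgA into polymers, and Mzb1 encodes an ER cochaperone of heavy chain assembly. The kappa constant gene Igkc is so abundant in these cells that its RNA is a frequent contaminant of other droplets.

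The single-dose and organoid libraries held no member. That is 0 of 1052 barcodes after a single dose of PBS, which allows a share of up to 0.285% (3 counts of the total, here and for the next values), and 0 of 996 after a single dose of bleomycin, up to 0.301%. It is 0 of 5140 and 0 of 8596 in the organoids with normal and fibrogenic FBs, up to 0.0584% and 0.0349%. Igkc had 212577 UMIs in the repetitive bleomycin library and 28361 in repetitive PBS, of which 26476 lay in its 2 members. It had 713 and 461 after single-dose bleomycin and PBS, and 0 in both organoid libraries. The 2 single-dose libraries totalled 11869967 and 7201081 UMIs, so their raw counts do not rank them. The repetitive bleomycin library was the shallower of its pair, with a median of 2478 UMIs per barcode against 10178 for PBS. The 2 libraries shared 28 barcode sequences, 1 of them a member's.

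The members differed widely in depth. Their totals ran from 860 to 33420 UMIs with a median of 3023. A gap separated 11 deep members, with 13945 to 33420 UMIs, from 72 shallow members that reached at most 7362. Immunoglobulin genes and Jchain together gave between 3.34% and 80.2% of a member's UMIs, with a median of 19.8%. The median was 42.6% in the deep members and 17.2% in the shallow ones.

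**Figure D1:**
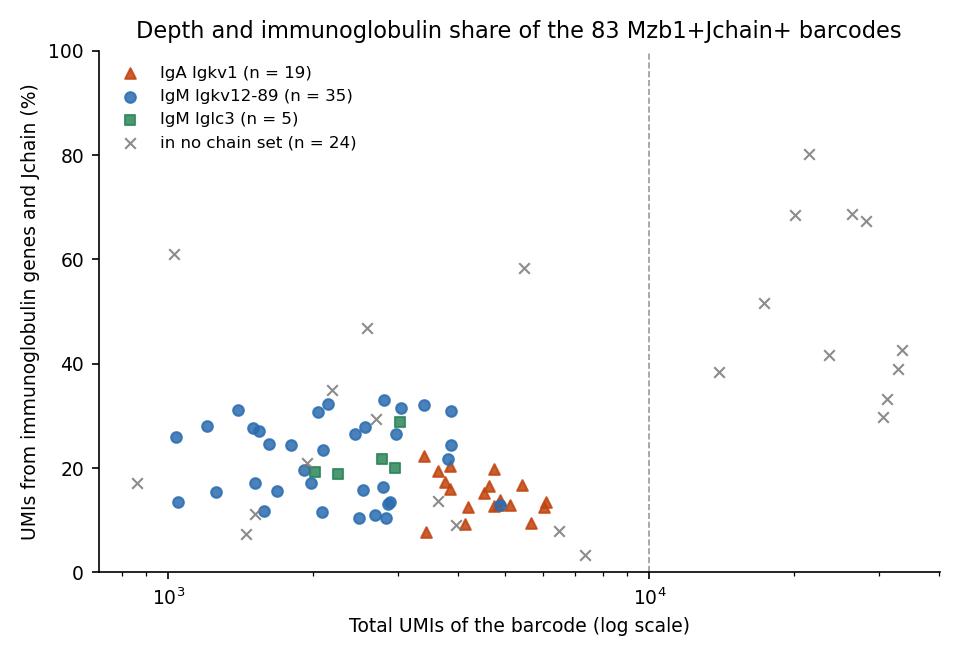
Total UMIs (x axis, log scale) and the percent of UMIs from immunoglobulin genes and Jchain (y axis) for each of the 83 members, with 1 point per barcode and colours and shapes for the 3 sets of barcodes drawn by their leading chain genes. The 11 deep members lie right of the dashed line at 10000 UMIs and belong to no set, while 59 of the 72 shallow members belong to 1 of 3 sets.

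Markers that the rule did not read followed this depth. Xbp1, the transcription factor that expands the ER for secretion, was detected in 11 of 11 deep and 42 of 72 shallow members. Derl3, a degradation factor of secretory cells, was detected in 11 and 17. Sdc1, the surface antigen CD138, was found in 9 of 11 and 6 of 72, and Prdm1, which encodes the master regulator Blimp-1, in 7 and 4. Tnfrsf17, the survival receptor BCMA, was found in 7 of 11 and 10 of 72. A single shallow member could miss such genes at its depth, but the pooled counts were lower too. Outside immunoglobulin genes and Jchain the shallow members held 181126 UMIs together and the deep ones 140323. Xbp1 had 67 UMIs in the shallow and 148 in the deep members, and Derl3 18 and 77. Sdc1 had 6 and 19, Prdm1 4 and 11, and Tnfrsf17 11 and 18.

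FB RNA was present in nearly all members. Col1a1, a main fibrillar collagen, was detected in 67 of 72 shallow members and in 6 of 11 deep ones. The 8 FB markers together stood at 15957 CPM (UMIs per 1000000) of all UMIs in the shallow members and 8611 in the deep ones, against 24065 in barcodes classed as FBs and 361 in those classed as B cells. Outside the immunoglobulin genes and Jchain they stood at 19693 CPM in the shallow members, 17125 in the deep ones and 24137 in FBs. The deep members fell apart here too. Dcn, the small proteoglycan decorin, had 165, 80, 515, 1, 1, 4, 1, 0, 48, 0 and 24 UMIs in the 11 barcodes ordered from deepest to shallowest. Of the 11, 5 had no Col1a1. Of the 8 B cell markers, Pax5, Cd22 and the excluded Ms4a1 had 0 UMIs in all 83. The other 5 had 372 UMIs, of which 186 were Ly6d, 136 Cd79a and 48 Cd79b. Together they stood at 740 CPM of all UMIs in the members, 13.8 in FBs and 8756 in B cells, a class these markers chose. How far droplets holding a plasma cell and an FB, or free RNA, contributed was not tested, and no doublet caller was run.

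Barcodes lay close to the rule on both sides. Of the members, 30 had exactly 2 Mzb1 UMIs, with a median of 316 Igkc UMIs, and none had exactly 2 Jchain UMIs. Just outside were 51 barcodes with 1 Mzb1 UMI and at least 2 of Jchain, with a median of 147 Igkc UMIs, of which 50 met the FB class. A further 116 had Jchain at 2 or more and no Mzb1, with a median of 1 Igkc UMI. Of these, 113 met the FB class and 74 were in the sets with shared chains described below. The IgM Iglc3 set, whose light chain is lambda, held 43 non-members without Mzb1. A low Igkc count therefore does not mean few immunoglobulin UMIs here. The exclusion on Ms4a1 removed 11 barcodes that otherwise met the rule. They had at most 2 Ms4a1 UMIs each, 8 of them exceeded 10000 UMIs, 9 met the FB class, and the deepest had 102317 UMIs with 11559 of Igha.

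All 83 members could be given a heavy chain class and a light chain. IgM was the class of 54 members (65.1%, 53.8 to 75.2), IgA of 28 (33.7%, 23.7 to 44.9) and IgG2c of 1. The intervals can be too narrow, since 59 members fell into sets with shared chains, described below, and may not be independent. The leading constant gene held at least 93.3% of the heavy chain UMIs in every member. Kappa was the light chain of 76 members (91.6%, 83.4 to 96.5) and lambda of 7. The combinations were 48 IgM kappa, 27 IgA kappa, 6 IgM lambda, 1 IgA lambda and 1 IgG2c kappa. Both PBS members were IgM kappa.

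The counts of the constant genes followed the classes. Ighm (chr12:113418558-113422730, minus strand, mm10), the mu constant gene, had 18335 UMIs over the members. Igha (chr12:113254830-113260236, minus strand), which encodes the class of mucosal secretions, had 11563. Ighg2c (chr12:113285325-113288932, minus strand) had 3515 UMIs, all in the deepest member. All 117 UMIs of Ighg2b lay in another barcode, a deep IgA member of 30577 UMIs with 1641 of Igha. Ighd, the delta gene of naive B cells, had 0 UMIs in the members and 211 in the 78 B cells. Ighg1 and Ighe had 0 in the members as well. In the repetitive PBS library Igha had 25 UMIs in all, beside 29033 after repetitive bleomycin.

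Among the 11 deep members there were 7 IgM, 3 IgA and 1 IgG2c. Their Igkc counts ran from 0 to 14074 UMIs with a median of 7341, and the member without Igkc was IgM lambda. Jchain ran from 239 to 2150 UMIs, with a median of 1035, and Mzb1 from 8 to 301, with a median of 46. In the 72 shallow members the medians were 320 UMIs for Igkc, 42 for Jchain and 3 for Mzb1. The 11 deep members thus carried 87281 of the 112622 Igkc UMIs of all members, and the members carried 53.0% of the Igkc of the whole library.

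Many barcodes had the same leading V genes, read from few UMIs and without the junction that tells rearrangements apart. UMIs of an Ighv gene were present in 59 members and of an Igkv gene in 66, with few per barcode (at most 14 and 11 in a shallow member). Both were present in 49 members, which fell into 13 combinations of class and leading V genes, and 8 of the combinations were found once. The most frequent was IgM with Ighv1-55 and Igkv12-89, in 25 members of 1039 to 4896 UMIs. IgA with Ighv5-17 and Igkv1-110 followed, in 8 members. IgM with Ighv1-26 and Igkv3-2 was found in 4, between 2184 and 32879 UMIs, and so in deep and shallow members alike. Igkv3-2 was the leading kappa V gene in 9 members, 8 of IgM and 1 of IgA, of which 5 were deep.

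The leading kappa V gene of many IgA members was 1 of 3 close genes, Igkv1-110 in 11 members, Igkv1-117 in 3 and Igkv1-122 in 2. Ighv5-17 led beside Igkv1-110 in 8 members and beside Igkv1-117 in 2. The germline stretches are shown because reads from so few UMIs have to be told apart by them. Over the last 383 bases of their annotated transcripts, Igkv1-110 is 97.4% identical to Igkv1-117 and 93.5% identical to Igkv1-122. Igkv12-89, the leading kappa V gene of 35 of the 54 IgM members, matched Igkv1-110 at 46.0% of 335 positions. Positions were compared in order from the 3′ end without gaps, so this value is not an aligned identity. The lines below give 84 bases, 5′ to 3′ on the coding strand, that begin at the same distance from the 3′ end of each transcript (GENCODE M21, GRCm38). Capitals mark bases that differ from Igkv1-110, 4 in Igkv1-117 and 7 in Igkv1-122, and the Igkv12-89 stretch is unmarked.
Igkv1-110 (chr6:68270485-68271267, plus strand): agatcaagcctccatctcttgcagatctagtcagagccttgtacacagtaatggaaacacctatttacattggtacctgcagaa
Igkv1-117 (chr6:68121046-68121827, plus strand): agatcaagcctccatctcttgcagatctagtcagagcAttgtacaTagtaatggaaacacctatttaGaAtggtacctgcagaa
Igkv1-122 (chr6:68016718-68017488, plus strand): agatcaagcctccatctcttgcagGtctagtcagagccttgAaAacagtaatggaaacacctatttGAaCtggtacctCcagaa
Igkv12-89 (chr6:68834846-68835307, minus strand): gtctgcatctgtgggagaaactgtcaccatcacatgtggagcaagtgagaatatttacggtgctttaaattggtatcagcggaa

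Since the counts of such near copies can be split by the counting, the 3 Igkv1 genes were pooled. On this basis 3 sets of barcodes were drawn over the whole library, after the counts had been seen. The IgA Igkv1 set (Igha, with 1 of the 3 Igkv1 genes leading, or Ighv5-17 where no Igkv UMI was present) held 43 barcodes, 19 of them members. The IgM Igkv12-89 set (Ighm, with Igkv12-89 leading, or Ighv1-55 where no Igkv UMI was present) held 72, of which 35 were members. The IgM Iglc3 set (Ighm with the lambda constant gene Iglc3, and no V gene in its definition) held 60, of which 5 were members. Together they took in 59 of the 83 members and 113 barcodes classed as FBs. No barcode of the repetitive PBS library fell into a set. Since the sets were defined by chains seen in the bleomycin members, this was close to fixed in advance and is no comparison.

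The ratio of light to heavy chain UMIs varied within each set. Iglc3 over Ighm ran from 2.89 to 5.20 in the 60 barcodes of the IgM Iglc3 set. Igkc over Ighm ran from 1.93 to 8.64 in the IgM Igkv12-89 set and Igkc over Igha from 1.71 to 6.50 in the IgA Igkv1 set. Over the members of a set, the variance of the heavy, light and joining chain counts relative to sampling at 1 fixed ratio was 0.896 in the IgM Iglc3 set, 1.29 in the IgM Igkv12-89 set and 8.04 in the IgA Igkv1 set. The chains of the last set thus varied well beyond counting error. The IgM Iglc3 set, itself defined by a high Iglc3 count, carried 82.1% of all Iglc3 UMIs of the library. The IgA Igkv1 and IgM Igkv12-89 sets carried 13.7% and 9.37% of its Igkc. Within the IgA Igkv1 set a single non-member of 23311 UMIs held 13227 of the 29111 Igkc UMIs and 2035 of the 7795 of Igha. This barcode also gave the highest ratio of the set, 6.50. It met the B cell class and so was part of the B cell comparison group. Totals ran from 742 to 3901 UMIs in the IgM Iglc3 set and were under 10000 UMIs in all but 5 barcodes of the IgA Igkv1 set and 1 of the IgM Igkv12-89 set.

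**Figure D2:**
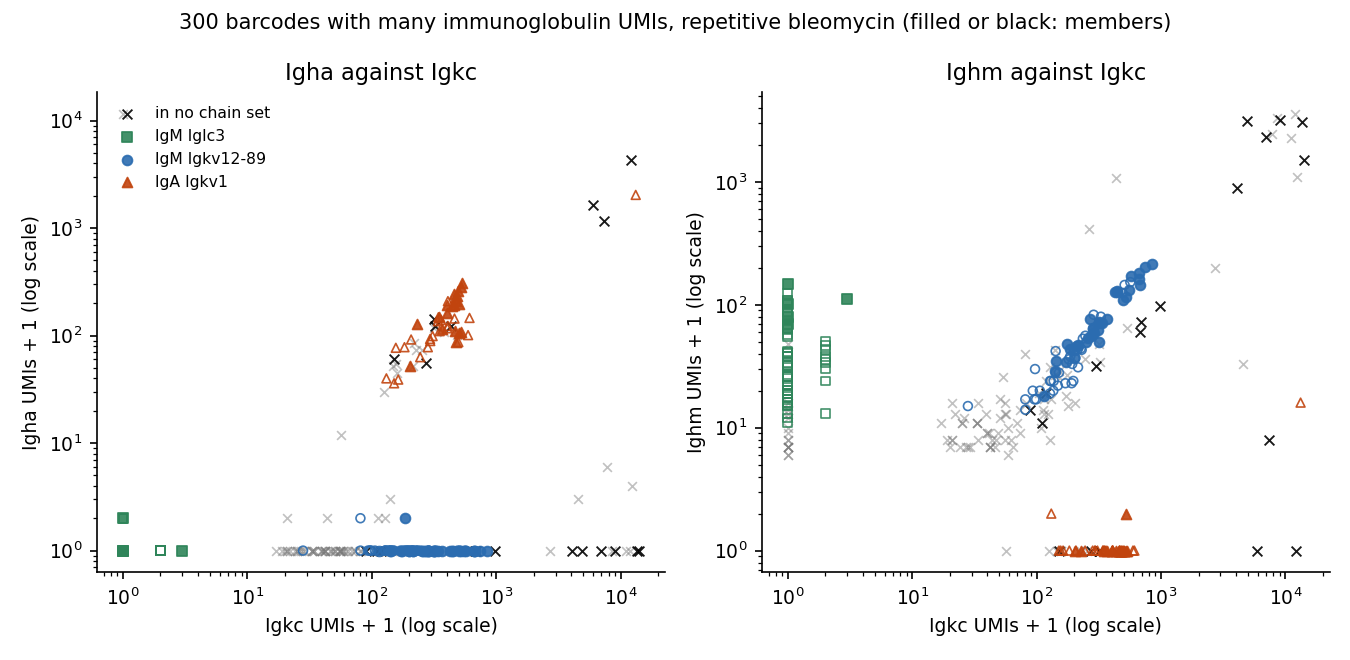
UMIs of Igha (left) and Ighm (right) against Igkc, each plus 1 and on log axes, for the 300 repetitive bleomycin barcodes with at least 20 Igkc or Iglc3 UMIs and at least 5 Ighm or Igha UMIs. Filled or black symbols are members and open or grey symbols are other barcodes. The IgA Igkv1 and IgM Igkv12-89 sets lie in bands that hold members and other barcodes alike, and the IgM Iglc3 set lies at an Igkc count of 0 to 2.

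Outside the immunoglobulin genes, set barcodes varied less from each other than FBs did, with no test of the difference. Barcodes under 10000 UMIs with at least 1500 UMIs outside immunoglobulin genes were thinned to 1500 of these. The variance of the 200 genes most abundant in FBs outside immunoglobulin, relative to that of random sampling from 1 pool, was 1.20 in 19 members of the IgA Igkv1 set and 1.42 in 21 of the IgM Igkv12-89 set. A value of 1 is sampling alone. It was 1.24 over 38 barcodes of the IgA Igkv1 set, 1.54 over 32 of the IgM Igkv12-89 set and 1.36 over 28 of the IgM Iglc3 set, members included, against 2.90 in 4087 FBs outside the sets and 2.54 in 2459 FBs of the PBS library. The cell barcode sequences were not alike, with a median of 12 of 16 positions differing between barcodes of a set and 12 between members of different sets or none. Whether a set was 1 cell seen in many barcodes, a clone or RNA spread from few cells was not tested, so members are counted as barcodes and not as cells. Without the sets 24 members were left.

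Some of the genes of the secretory pathway were higher in the members than in FBs, a larger share of them in the deep members than in the shallow ones. Levels from here on are CPM of the UMIs outside immunoglobulin genes and Jchain, and ratios are log2 after adding 1 CPM. Over 92 genes of 6 lists, from ER entry to Golgi transport, the median log2 ratio over FBs was 0.61 in all members, 1.01 in deep members, 0.34 in shallow members and 1.64 in the 5 deep members without Col1a1. The median over all genes with enough UMIs was −0.15, −0.08, −0.08 and 0.59 in the same order. Over the secretory genes with enough UMIs it was 0.67, 1.17, 0.42 and 2.24. With CPM of all UMIs, immunoglobulin included, the median for all members turned to −0.02.

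In all members, 27 of 85 secretory genes with enough UMIs were higher than in FBs by a log2 ratio over 1, beside 5.66% of all genes, and 1 was lower, beside 11.5%. In the deep members 43 of 72 were higher (15.9% of all genes) and 1 was lower (23.8%). In the shallow members 16 of 76 were higher (3.25%) and none was lower (6.1%). Over B cells the median was 1.72 in all members, with 66 of 86 higher (25.6%) and 1 lower (22.8%). It was 2.00 in the deep members, with 61 of 70 higher (27.1%) and 2 lower (24.8%).

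Entry into the ER gave the highest single ratio in the deep members, while the degradation gene Edem2 was highest in all members and in the shallow ones, and the chaperone gene Sdf2l1 in the deep members without Col1a1. Sec11c, a catalytic subunit of the signal peptidase, had 17 to 54 UMIs in the 11 deep members (median 32) and stood at 2516 CPM in them against 90.7 CPM in FBs (log2 ratio 4.78). All 11 deep members exceeded the FB level. Ssr4, a subunit of the translocon-associated complex, had 19 to 74 UMIs (median 58), and its ratio was 3.76, again with all 11 above. Spcs1, another signal peptidase subunit, was at 2.68. Sec62 (−0.24) and Sec63 (0.00), which serve posttranslational entry, stood at the FB level. Of 18 genes of this list 9 were higher in the deep members, beside 15.9% of all genes, and none was lower.

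Chaperones followed, with 10 of 12 higher in the deep members (15.9% of all genes) and none lower. Creld2, an ER stress-induced chaperone, had 0 to 48 UMIs in the deep members (median 6) and a log2 ratio of 3.90. Hsp90b1 (GRP94) had 9 to 187 UMIs and a ratio of 1.73, with 10 of 11 deep members above FBs. For Sdf2l1, Hspa5 and other chaperone genes a single barcode mattered. A deep IgA member of 23643 UMIs held 164 of the 216 Sdf2l1 UMIs and 192 of the 328 of Hspa5, the major ER chaperone BiP, which was above the FB level in 6 of 11 (ratio 1.13). Sdf2l1 was above it in all 11 (ratio 4.27). Canx, the lectin chaperone calnexin, was lowest of its list at −0.51. FBs had many of these transcripts themselves, with Hspa5 at 1065 CPM and Calr at 762 CPM.

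Disulfide formation and ER-associated degradation followed the same pattern. Txndc5, a disulfide isomerase, had 7 to 45 UMIs in the deep members and a log2 ratio of 3.79, with all 11 above FBs, and Prdx4, an ER peroxiredoxin, was at 3.00. Collagen-associated P4hb (0.05) and Pdia3 (0.05) matched FBs, and Pdia5 had 0 UMIs in the deep members. Edem2 and Edem1, which pick misfolded glycoproteins for degradation, were at 4.62 and 4.16, and Herpud1, of the degradation complex, at 2.92. In the deep members 6 of 8 disulfide genes and 7 of 9 degradation genes were higher (15.9% of all genes), and none was lower.

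Genes of N-glycosylation and of transport to the Golgi were also higher, in part. Of 11 glycosylation genes 6 were higher in the deep members (15.9% of all genes), led by Krtcap2, a subunit of the oligosaccharyltransferase, at 2.09, and Stt3b, a catalytic subunit, was at −0.39. Of 14 transport genes 5 were higher (15.9% of all genes), with the cargo receptor Lman2 at 1.74, and the COPII coat gene Sec24d, known for its part in collagen export, was lower at −1.47 (23.8% of all genes were lower). Of 3 genes of the unfolded protein response with enough UMIs none was higher. Atf6, an ER stress sensor, was at 0.95, Atf4 at 0.29 and Ddit3, a stress-induced death factor, at 0.23.

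**Figure D3:**
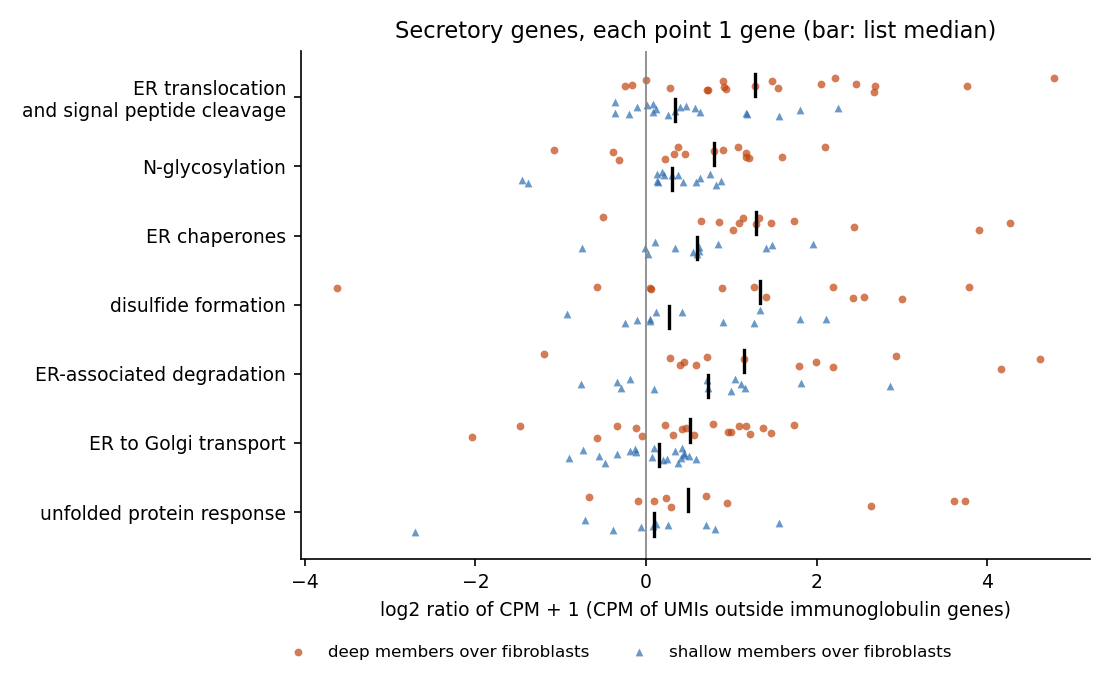
Log2 ratios of CPM plus 1 for each of the 92 secretory genes in 6 lists and for 10 genes of the unfolded protein response (1 point per gene, low-count genes included), for the 11 deep (red circles) and the 72 shallow members (blue triangles) over FBs. Black bars are the list medians, and in each of the 7 lists the deep median lies right of the shallow one.

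Of 15 plasma cell identity genes 11 had enough UMIs. Among the 11, 10 were higher in the deep members than in FBs (15.9% of all genes), and none was lower. Genes near 0 in FBs, such as Derl3 (2.91 CPM), Pou2af1 (0.691 CPM) and Slamf7 (2.25 CPM), could enter only through the deep members. Their call was thereby fixed, and the count is a description. Xbp1 had 33, 13, 25, 12, 19, 17, 7, 8, 2, 9 and 3 UMIs from the deepest to the shallowest. Each was above the FB level, and the pooled log2 ratio was 2.38 (1055 CPM against 201). The ratio in shallow members was 0.87. Derl3 was at 7.14, Pou2af1, a B lineage coactivator, at 6.94, and Slamf7, a plasma cell surface receptor, at 6.92. Over B cells Derl3 was at 7.07 and Xbp1 at 3.81, while Pou2af1 stood at 0.06. Cd38 had 0 UMIs in the deep members and stood at 248 CPM in B cells.

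B cell genes were lower, of which Ms4a1 was fixed by the rule. Of 12 B cell identity genes 11 were lower in the deep members than in B cells, beside 24.8% of all genes. The B cell class was itself chosen by 8 of such markers, so this is a description. Pax5, the factor that maintains B cell identity, Cd22 and Bank1 had 0 UMIs, beside 163, 45 and 736 in the B cells. Taking a floor of 3 counts, they were at least 23.7-fold, 6.53-fold and 107-fold lower. Cd79a, the receptor signalling chain, stood at 777 CPM against 2281 CPM. Ly6d was at 1040 CPM against 1853 CPM and was the gene not past the threshold, with 84 of its 146 UMIs in the deepest member. Of 8 class II presentation genes, which did not choose the class, 7 were lower (24.8% of all genes). With 0 UMIs of H2-DMb2 and H2-Oa, 4 of H2-DMa and 9 of H2-Ob in the deep members, these entered the count only through the B cells. Lower was the only call open to them. H2-Aa stood at 178 CPM against 2911 CPM, but the invariant chain Cd74 at 6784 against 9510 CPM. Cd74 had 30 to 211 UMIs in each of the 11 deep members.

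Homing and survival genes rested on few UMIs. Of 17 homing and adhesion genes 3 had enough UMIs in the deep members. Of the 3, 1 was higher than in FBs (15.9% of all genes), 1 was lower (23.8%) and 1 lay between. Itga4, the alpha 4 integrin that binds VCAM1, was found in 7 of 11 deep members, at 221 CPM against 2.28 CPM in FBs. So low in FBs, it could enter the count only through the deep members, which fixed its call as higher. Its partner Itgb1, the beta 1 integrin, also had 31 UMIs in the deep members and stood at 221 CPM against 570 CPM in FBs (log2 ratio −1.36). Ccr10, a homing receptor of mucosal IgA cells, had 11 UMIs in 3 deep members, 7 of them in a deep IgA member, and Ccr9, the gut homing receptor, had 3 UMIs in 1 member. Tnfrsf13b, the receptor TACI, was found in all 11 with 1 or 2 UMIs each. Mcl1, a survival factor of plasma cells, was at 413 CPM against 179 CPM (log2 ratio 1.20) and above the FB level in 9 of 11.

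Outside the lists, the 15 genes highest over FBs included Gm30211 (7.34), E330020D12Rik (6.89), Ly6c2 (6.79), Slpi (6.45), Cd52 (5.48) and Srgn (4.38), as log2 ratios of all members. Slpi, a secreted protease inhibitor, had 441 UMIs, of which 280 lay in the IgG2c member. Ly6c2 had 103 UMIs in 11 members, 51 of them in the same barcode. Cd52, a lymphocyte surface glycoprotein, was spread more evenly, with 310 UMIs in 45 members and 1 to 91 in each deep member. Compared with B cells, the genes with the highest ratios were FB genes such as Fstl1, Fbln1, Gpc3, Clec3b and Col14a1, in a group that carries FB RNA. Among the lowest were March1, Ms4a4c and Bcl11a, at 0 UMIs in all 83.

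The 4 highest ratios of IgA over IgM members came mostly from 1 barcode. Cxcl9, Gbp2, Iigp1 and Cxcl10, all induced by interferon, led the ranking. A deep IgA member of 30577 UMIs held 72 of 72, 52 of 58, 137 of 165 and 108 of 149 UMIs of these genes over all members. These 4 ratios therefore describe that barcode and not the IgA class. Mt1, a metallothionein, followed with 158 UMIs in IgA and 31 in IgM members (log2 ratio 2.53). Acta2, smooth muscle actin, had the lowest ratio, with 4 UMIs in the 28 IgA members and 55 in the 54 IgM members. Class and set coincided in large part, since 19 of the 28 IgA members were in the IgA Igkv1 set and 35 and 5 of the 54 IgM members in the other 2 sets. A difference between classes and one between sets cannot be told apart here.

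Few members showed cycling genes. At least 2 UMIs over a list of 20 cell cycle genes were found in 9 of 83 members (10.8%, 5.08 to 19.6), 6 of them deep, against 22.9% of FBs and 39.7% of B cells. The list stood at 162 CPM in the members, 233 in FBs and 1552 in B cells, where 1 barcode held 238 of the 500 UMIs. Mki67 had 2 UMIs and Top2a none in the members. Depth differed between these groups, with medians of 3023, 2813 and 3512 UMIs.

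Igkc (chr6:70726435-70726966, plus strand, a single exon) was also counted in FB barcodes, and far more often after bleomycin. Of 9163 bleomycin FBs, 1644 had Igkc (17.9%, 17.2 to 18.7), against 128 of 5539 PBS FBs (2.31%, 1.93 to 2.74), although the median depth was 2813 UMIs in the first and 10422 in the second. With every barcode thinned to 700 UMIs the shares were 5.76% (5.29 to 6.26) and 0.144% (0.0624 to 0.284). Thinning is a random draw, and the mean over all draws was 5.78% and 0.193%. It cut the deeper PBS barcodes more. At like depth without thinning, the ratio of the shares varied between depth ranges. From 8000 UMIs the shares were 24.0% in bleomycin and 2.59% in PBS FBs, and at 4000 to 8000 UMIs 17.1% and 1.96%. At 2000 to 4000 UMIs they were 17.1% and 0.402%, the latter 1 of 249 barcodes. At 1000 to 2000 UMIs they were 14.1% and 1.52%, and at 700 to 1000 UMIs 12.9% and 0 of 40.

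The FB barcodes with Igkc were of separate kinds. In bleomycin FBs 1298 barcodes had 1 Igkc UMI, 231 had 2 to 4, 16 had 5 to 19 and 99 had 20 or more. These 99 barcodes held 75574 of the 77538 Igkc UMIs of FBs (97.5%), up to 12338 in 1 barcode, and 58 of them were in the chain sets above. In PBS FBs the highest count was 17. The counts of the members lay over those of the 99, with 76 of 83 members at 20 or more.

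**Figure D4:**
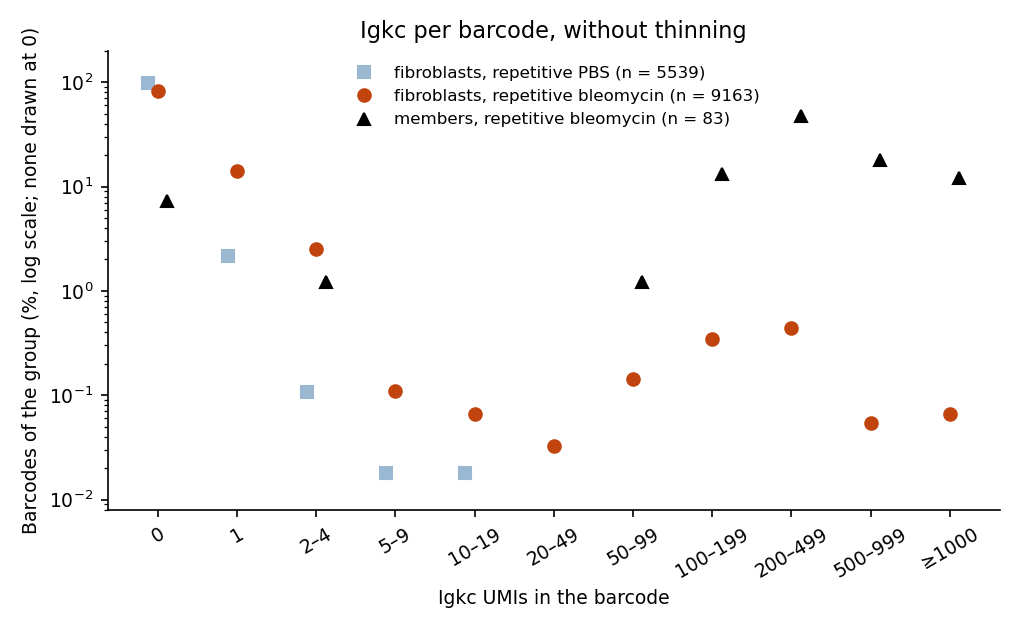
Percent of barcodes (y axis, log scale, groups at 0 not drawn) by the number of Igkc UMIs in the barcode (x axis, bins) for PBS FBs (squares), bleomycin FBs (circles) and the 83 members (triangles). Bleomycin FBs have a second rise from 50 UMIs upward, where most members lie, and PBS FBs end at 17.

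The low counts were spread over cell types. Leaving out barcodes with 20 or more, Igkc stood at 31.8 CPM of all UMIs in bleomycin FBs (30.4 to 33.2). It was 32.2 CPM (22.8 to 44.1) in myeloid barcodes, 31.6 CPM (11.6 to 68.7) in endothelial, 29.2 CPM (11.7 to 60.2) in epithelial and 68.3 CPM (42.3 to 104) in T cell barcodes. PBS FBs stood at 2.58 CPM (2.19 to 3.03). Unthinned shares with Igkc were 23.5% of 115 myeloid, 25% of 56 T cell and 20% of 30 endothelial barcodes after bleomycin, with medians of 7831, 4521 and 5577 UMIs. The share was 16.7% of 18 neutrophil barcodes. At 700 UMIs, as the mean over all draws, it was 5.78% of FBs (4.76% without FBs with 20 or more Igkc UMIs), 5.56% of T cell, 4.01% of myeloid, 4.01% of endothelial, 3.60% of epithelial and 3.57% of neutrophil barcodes. The source of the low counts was not tested. Among bleomycin FBs the unthinned share grew with depth, from 12.9% at 700 to 1000 UMIs to 24.0% from 8000 UMIs.

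The mix of chains was set out per 100 Igkc UMIs for each kind of barcode. In FBs with fewer than 20 heavy and light chain UMIs there were 24.7 Ighm UMIs (22.5 to 27.0) and 25.5 of Igha (23.3 to 27.9) per 100 of Igkc, with 12.5 of Jchain and 5.83 of Iglc3. In FBs with 20 or more such UMIs Ighm, Igha, Jchain and Iglc3 stood at 24.7, 19.6, 19.1 and 13.2. The Igha value of these FBs rested largely on the barcode of 102317 UMIs, which had no Igkc and held 11559 of their 14813 Igha UMIs. Ighg2c was at 0 in these FBs, 2.03 in the FBs with fewer UMIs and 3.12 in the members, where it lay in 1 barcode. In the members Ighm, Igha, Jchain and Iglc3 were at 16.3, 10.3, 13.5 and 1.90. In shallow members they were 14.97, 17.6, 14.7 and 8.03. PBS FBs at low counts had 39.4 Ighm UMIs but 0.730 of Igha per 100 of Igkc, and the 2 PBS members had 22.2 and 0.0869. Low-count FBs thus had Igha beside Igkc in bleomycin and nearly none in PBS, where the value rested on 1 Igha UMI. Within bleomycin the mix differed, with 25.5 Igha UMIs per 100 of Igkc in these FBs, 10.3 in the members and 17.6 in the shallow members. The member value depends on the rule, which left out the barcode of 102317 UMIs for its Ms4a1. Whether the low counts came from the members was not tested.

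RNA of ligands known to attract or sustain plasma cells was counted in the FB barcodes. Whether FBs made it all was not tested, and Cxcl9 stood below the 31.8 CPM of Igkc at low counts. Of 15 such genes with enough UMIs, 7 were higher in bleomycin FBs than in PBS FBs by a log2 ratio over 1 (6.18% of all genes) and none was lower (1.62%), beside a median of 0.10 over all genes. Cxcl12, the ligand of CXCR4, stood at 384 CPM (380 to 389) against 87.1 CPM (84.7 to 89.5). Cxcl13, which attracts B cells to follicles, stood at 92.3 against 12.5 CPM, and Cxcl9 at 14.8 against 0.789 CPM. Among chemokine receptors in the 11 deep members, Cxcr4 had 8 UMIs in 5 of them, and Cxcr5 and Cxcr3 had 0. Tnfsf13b (BAFF) was at 137 and 140 CPM, Il6 at 96.3 and 99.4 CPM, and Vcam1, the ligand of the alpha 4 integrin, at 461 and 713 CPM. With 1 library each, treatment and library cannot be told apart.

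**Figure D5:**
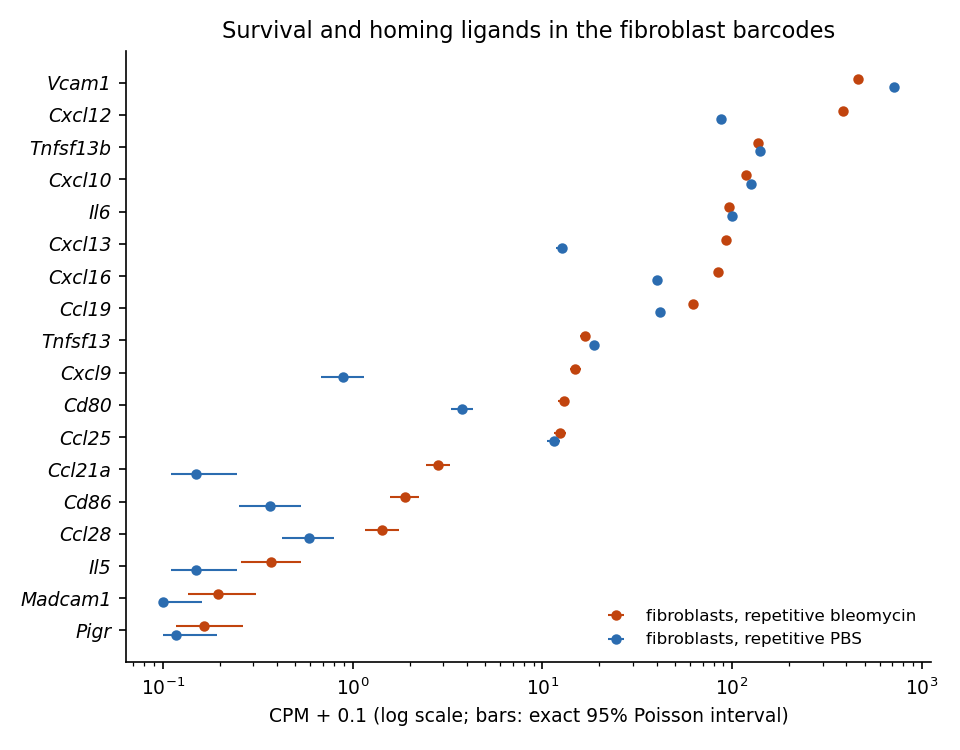
CPM plus 0.1 (x axis, log scale) of 18 survival and homing ligands in FBs of repetitive bleomycin (red) and repetitive PBS (blue), with exact 95% Poisson intervals as bars. Cxcl12, Cxcl13 and Cxcl9 lie to the right after bleomycin, while Tnfsf13b and Il6 overlap or nearly do.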

How the data were processed

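The authors deposited raw UMI counts, a table for each library, with genes in rows and barcodes in columns. The submitters' processing notes name Cell Ranger 3.0.1, Seurat 3 and mm10. Whether counting used strand is not given in the sources used here. Totals ran from 7201081 to 238618743 UMIs per library. Members, gene lists and tests were chosen with earlier results of these data known. The 3 chain sets, the split at 10000 UMIs and the group without Col1a1 were chosen after seeing the counts.

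Counts were read with Python 3.11.15, numpy 2.4.6, scipy 1.17.1 and pandas 2.3.3. A barcode with at least 700 UMIs that was no member took the cell class with most of its 8 markers detected, with at least 3 and a lead of 2. A member took a heavy or light chain from at least 5 UMIs with 60% in 1 gene or type. The IgA Igkv1 and IgM Igkv12-89 sets also needed at least 10 UMIs of the heavy chain and 20 of Igkc, and the IgM Iglc3 set at least 50 of Iglc3 and more than 5 times the Iglc2 count. UMIs were summed per group as CPM (UMIs per 1000000), and counts of higher and lower genes used genes whose mean level equals at least 10 UMIs in the shallower group. No p-value was computed, mitochondrial content was not filtered, and doublets were kept. Steps were tested on simulated data. Genes named were those of the rule and lists, the extreme ratios outside the lists (15 highest over FBs, 10 highest and 10 lowest over B cells and between IgA and IgM, with at least 50 UMIs), and the leading V genes. Loci and sequences came from GENCODE M21 on GRCm38, the same build as mm10.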

Additional observations from a re-analysis of the deposited data

How the results depend on the processing

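No paired analysis was possible because there is 1 library per condition. The number of members changed from 83 to 136 with both genes at 1 UMI, 36 with both at 4 UMIs, 53 with Xbp1 in place of Jchain and 5 without members that had at least 4 FB markers. Of the alternatives added after seeing the data, leaving out the chain sets gave 24, and members of at least 10000 UMIs gave 11. Without those FB marker members the kappa share was 100%, the median immunoglobulin share 61.0%, the secretory median 1.06 over FBs and 1.96 over B cells, and the cycling share 20%. In deep members alone the immunoglobulin share was 42.6%, the secretory medians 1.01 and 2.00 and the cycling share 54.5%, and in deep members without Col1a1 the secretory medians were 1.64 and 2.47. With both genes at 4 UMIs the immunoglobulin share was 30.4%. With CPM of all UMIs the secretory median over FBs reversed to −0.0165 and that over B cells was 1.18, by the construction of the totals. Centred on the median gene it was 0.926 over FBs, and against B cells with under 2 Mzb1 UMIs it was 1.97. The centred value is not the difference from the −0.15 given above for genes with enough UMIs. The share of FBs with Igkc was 17.9% without thinning, 8.22% at 2000 UMIs, 4.73% without Jchain or Mzb1 barcodes and 4.74% without barcodes of 20 Igkc UMIs. Cycling members were 34.9% at 1 UMI and 2.41% at 4 UMIs. The cause of the other changes was not tested. Of 56 alternatives 28 counted as unchanged, 27 as moved and 1 as reversed. All of those for the IgA share stayed within its counting interval, which treats barcodes as independent. No counting interval is given for the medians. Shallow members, at a median of 2818 UMIs, cannot show the loss of a gene of low level.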
